A study of Mus musculus with 2 samples.

Results

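Cholesterol and fatty acid synthesis genes were followed in astrocytes cultured from the dentate gyrus (DG) of adult mice. The set holds 37 genes, named by symbol, of which 18 encode enzymes of sterol synthesis, 5 encode regulators of that pathway, 9 encode enzymes of fatty acid synthesis and 5 serve lipid export and storage. Of the 37 genes, 34 were listed in both tables of expression values, out of 16302 gene symbols listed in at least one table. The data are 1 RNA sequencing library from wild type (WT) C57BL/6 mice and 1 library from mice of the same strain without β-arrestin 1 (β-arr1 KO), a scaffold protein of G protein-coupled receptors that is encoded by Arrb1. For each library, cells were grown in medium with serum, insulin and transferrin and then lysed for total RNA. According to the methods of the study, the adult DG was dissociated, loose cells were shaken off after attachment, and the KO line had been backcrossed to C57BL/6J. The labels and methods restrict the ablation to no cell type.

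Cholesterol is built from acetyl-CoA through mevalonate, isoprenoid units, squalene and lanosterol. The enzymes are transcribed under sterol regulatory element binding proteins (SREBPs), which SCAP escorts from the endoplasmic reticulum and which INSIG proteins retain there when sterol is plentiful. SREBP-1 also drives the enzymes that turn citrate into saturated, monounsaturated and polyunsaturated fatty acids. In the brain, astrocytes make much of the cholesterol and release it on apolipoprotein E through ABC transporters.

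The values are FPKM (fragments scaled for transcript length and for the mapped fragments of the library), which can be compared between genes because they are set per length. With 1 library per genotype there is no replicate error and no test of genotype, and each ratio given here is FPKM in β-arr1 KO divided by FPKM in WT. A gene was analysed if its level reached 1 FPKM in either library, and a ratio above 3/2 or below 2/3 was counted as past the limits that the study used. Of 12646 genes analysed, 2256 were past the limits (17.8%), with 9.56% above 3/2 and 8.28% below 2/3. The ratio was above 1 in 53.0% of them. The 95% intervals printed after ratios hold counting error only, from fragments estimated with the longest annotated transcript.

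Arrb1 was 7.62 FPKM in WT vs. 2.72 FPKM in β-arr1 KO, with a ratio of 0.358. The culture held more than astrocytes. Astrocyte markers were present in both libraries, with Gfap at 189 FPKM and 192 FPKM, and the median ratio of the 11 astrocyte markers analysed was 1.37. Microglia markers summed to 1411 FPKM in WT vs. 1084 FPKM in β-arr1 KO, and 11 of 12 were lower in β-arr1 KO, with none past the limits. Of 8 fibroblast and mural markers analysed, 5 were below 2/3, as in the collagen gene Col1a1 with 420 FPKM and 237 FPKM. The other 3 were between the limits and not clearly lower. Acta2, the most abundant, was 2478 FPKM in WT vs. 2469 FPKM in β-arr1 KO. Myh11, at 40.4 FPKM and 56.6 FPKM, and Cspg4, with a ratio of 1.41, were higher in β-arr1 KO. The astrocyte marker Gjb6 was listed in β-arr1 KO alone, at 0.0526 FPKM. Of 8 neuronal markers, 3 reached 1 FPKM, and they were higher in β-arr1 KO, with Tubb3 at 44.7 FPKM and 59.8 FPKM, Stmn2 at 36.6 FPKM and 43.4 FPKM and Syn1 at 3.48 FPKM and 4.12 FPKM, while Snap25 was at 0.108 FPKM and 0.261 FPKM. Oligodendrocyte markers summed to 81.6 FPKM in WT vs. 115 FPKM in β-arr1 KO, and 3 of 7 analysed were above 3/2 (Olig2 with a ratio of 2.11, Olig1 with 1.71 and Sox10, at 0.907 FPKM and 1.82 FPKM) and 1 was below 2/3 (Cldn11 with 0.615). Of 4 oligodendrocyte precursor markers analysed, Pdgfra had a ratio of 1.93, Cspg4 one of 1.41 and Ptprz1 one of 1.34. Bmp4 was lower in β-arr1 KO, at 38.7 FPKM in WT vs. 25.9 FPKM (ratio 0.669). Of 6 endothelial markers analysed, 2 were above 3/2 (Pecam1 with a ratio of 1.72 and Flt1 with 1.71), 1 was below 2/3 (Cdh5 with 0.507) and 3 were between the limits. Each value below is a mean over all these cells, in which fewer cells of a type and less RNA per cell cannot be told apart. The part of these markers in the results below was not tested, except where a value is given.

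The sterol synthesis genes were slightly higher in β-arr1 KO almost throughout the pathway, and 1 of them was far higher. Of the 15 listed genes, 14 had a ratio above 1, beside 53.0% of all genes analysed, and the median ratio was 1.15, beside 1.01 over the 12171 analysed genes that were listed in both tables. The only gene past the limits was Fdps, with 0 genes below 2/3, beside 17.8% past the limits and 8.28% below 2/3 over all genes analysed. Without Fdps, the other 14 genes lay between 0.995 and 1.27 with a median of 1.13. Ratios of this size were common for single genes, since 25% of these 12171 genes had a ratio of at least 1.16 and 25% had one of at most 0.895. These genes include many at lower levels than the sterol synthesis genes. Over the 7422 genes with a mean of 5 to 50 FPKM, the same 2 shares began at 1.13 and 0.910. Levels ran from 6.73 FPKM for Dhcr7 to 38.9 FPKM for Sc4mol in WT, and from 8.17 FPKM to 47.2 FPKM for the same genes in β-arr1 KO.

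**Figure D1:**
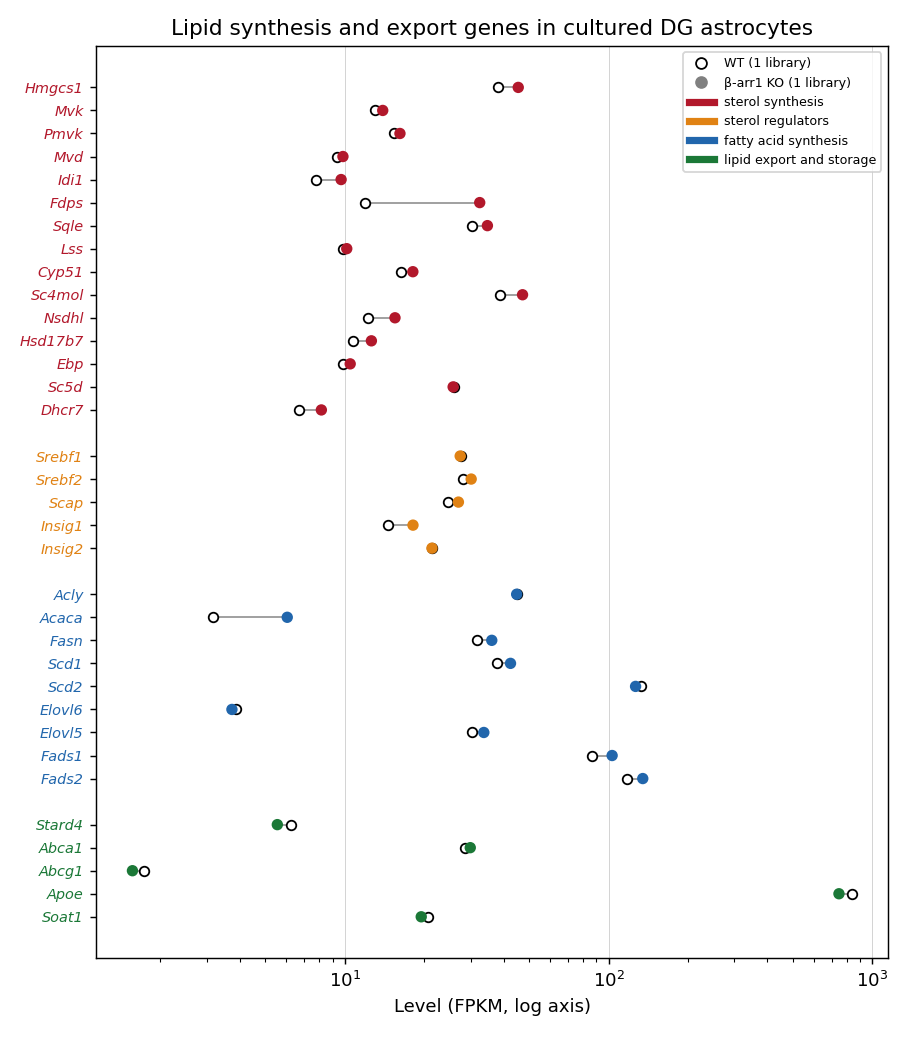
Level of each listed gene in FPKM (log axis) in the WT library (open circles) and the β-arr1 KO library (filled circles), coloured by gene group. The circles lie close together for most genes, and the widest gap is that of Fdps, from 11.9 FPKM to 32.5 FPKM.

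In the mevalonate stage, which ends in farnesyl diphosphate, all 6 listed genes had a ratio above 1, with a median of 1.13. Hmgcs1, the cytosolic HMG-CoA synthase, was 38.0 FPKM in WT vs. 45.5 FPKM in β-arr1 KO (ratio 1.20). Its row lies on an unplaced part of chromosome 13 and overlaps the rows of Zfp131 and Nim1, so that reads in the shared stretch may have been divided among them, and no interval was computed. Mevalonate kinase (Mvk) was 13.1 FPKM and 13.9 FPKM, and its ratio of 1.07 had an interval from 0.903 to 1.26. Pmvk, the next kinase, was 15.4 FPKM and 16.2 FPKM. Mvd, the decarboxylase that makes isopentenyl diphosphate, was 9.36 FPKM and 9.86 FPKM. For Mvk, Pmvk and Mvd the difference between the libraries was within counting error.

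Idi1, the isomerase that balances the isoprenoid units, was 7.78 FPKM in WT vs. 9.70 FPKM in β-arr1 KO. The ratio of 1.25 had an interval from 1.03 to 1.51. Fdps, farnesyl diphosphate synthase, was 11.9 FPKM in WT vs. 32.5 FPKM in β-arr1 KO, with a ratio of 2.72 (2.20 to 3.38) from about 121 and 339 fragments. The row of Fdps had the same bounds in both tables, from 88897510 to 88905889 on chromosome 3 of NCBIM37, where the annotation has a protein-coding gene of 10 exons on the minus strand. The neighbouring gene Rusc1 was 7.86 FPKM and 8.48 FPKM, with a ratio of 1.08. No gene next to Fdps in the pathway differed as much, since Idi1 before it had a ratio of 1.25 and Sqle, the nearest listed step after it, one of 1.15.

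Fdps is also the listed sterol gene with the largest share of its coding sequence repeated elsewhere. Of its 1031 coding windows of 32 bases, 88.1% occurred at other places of the genome. A pseudogene on chromosome 10 (Gm3571) held 66.4% of the windows, a place on chromosome 6 held 39.6%, one on the X chromosome that is annotated as Gm8163 held 27.8%, and one within Adcy2 on chromosome 13 held 24.6%. Idi1 was similar in this respect, with 86.1% of its windows at a pseudogene on chromosome 2 (Gm13502) or at other places. Reads of these genes can be placed at a copy or divided among copies, and this part of the result was not tested. The counting intervals do not cover it.

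In the squalene stage, Sqle, the squalene epoxidase that takes a rate-limiting part in the pathway, was 30.3 FPKM in WT vs. 34.8 FPKM in β-arr1 KO. The ratio of 1.15 (1.06 to 1.24) rests on 1243 and 1467 fragments. Lss, which closes the ring system to lanosterol, was 9.85 FPKM and 10.2 FPKM, a ratio of 1.03 whose interval of 0.927 to 1.15 includes 1.

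From lanosterol on, 6 of 7 listed genes had a ratio above 1, with a median of 1.18. Cyp51, the lanosterol demethylase, was 16.3 FPKM in WT vs. 18.1 FPKM in β-arr1 KO (ratio 1.11, 0.992 to 1.24). The next 3 enzymes remove the remaining methyl groups. Sc4mol, the methyl sterol oxidase now called Msmo1, was 38.9 FPKM and 47.2 FPKM with a ratio of 1.22 (1.12 to 1.32). Nsdhl, the sterol dehydrogenase, was 12.2 FPKM and 15.5 FPKM with a ratio of 1.27 (1.07 to 1.51). Hsd17b7, the ketosterol reductase, was 10.7 FPKM and 12.6 FPKM with a ratio of 1.18 (1.04 to 1.34). For all 3 the interval lay above 1.

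The remaining enzymes set the double bonds of the sterol. Ebp, the isomerase, was 9.88 FPKM in WT vs. 10.5 FPKM in β-arr1 KO (ratio 1.06, 0.846 to 1.34). Sc5d, the desaturase, was 25.9 FPKM and 25.8 FPKM (ratio 0.995) and was the only listed sterol synthesis gene that was not higher in β-arr1 KO. Dhcr7, which makes cholesterol from its last precursor, was 6.73 FPKM and 8.17 FPKM (ratio 1.21, 0.986 to 1.49). Nsdhl and Ebp are on the X chromosome. The Y chromosome genes Ddx3y and Eif2s3y were listed in β-arr1 KO alone, at 2.47 FPKM and 4.53 FPKM. RNA of male cells was thus present in β-arr1 KO and not detected in WT. The X chromosome gene Xist was listed in both libraries, at 39.4 FPKM in WT vs. 29.7 FPKM in β-arr1 KO. This difference in sex cannot be told apart from genotype. Its part in the values of Nsdhl, Ebp and every other gene given here was not tested.

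Over the 14 sterol synthesis genes with an interval, 6 intervals lay above 1, 0 lay below and 8 included 1. Counting error alone thus left the direction of 8 genes undetermined at a depth of about 9.53 M mapped fragments for WT and 9.82 M for β-arr1 KO. Variation between cultures, which cannot be measured here, comes on top of it.

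**Figure D2:**
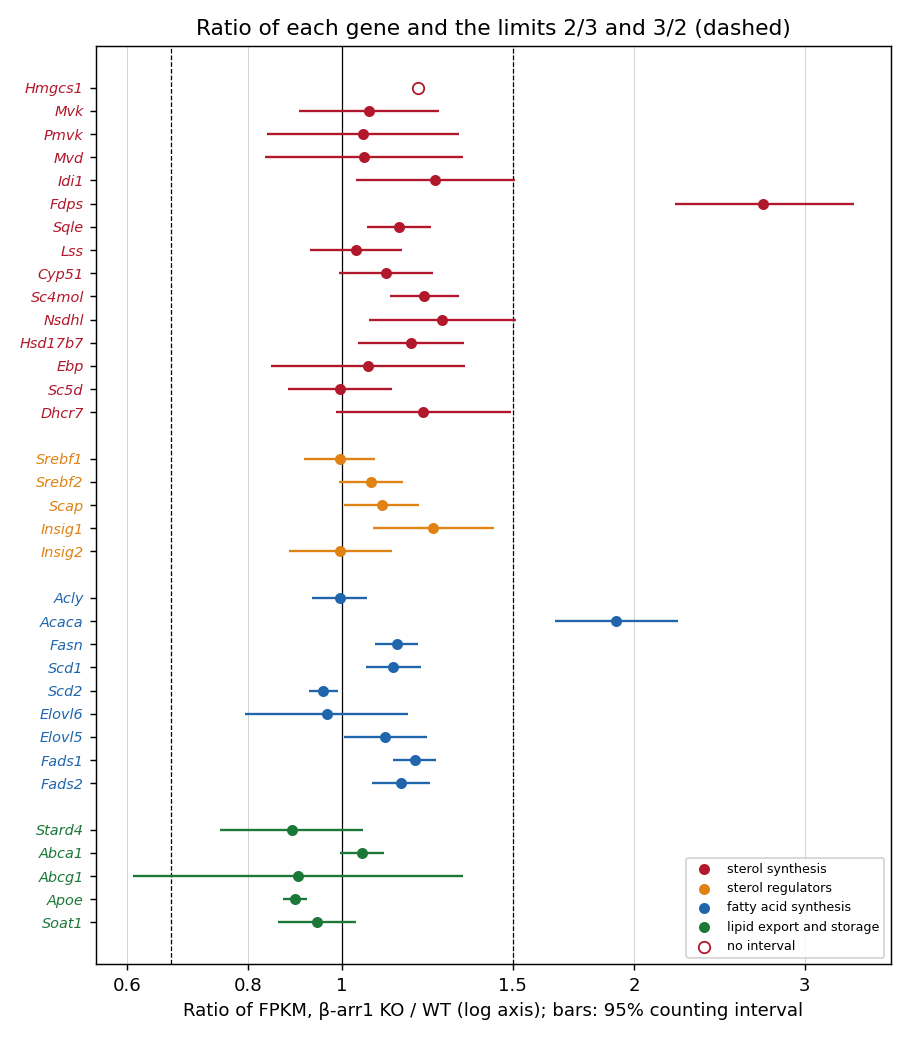
Ratio of FPKM in β-arr1 KO to FPKM in WT for each listed gene (log axis), with the 95% counting interval as a bar and the limits 2/3 and 3/2 as dashed lines. The open circle is Hmgcs1, which has no interval, and Fdps at 2.72 and Acaca at 1.92 are the only genes beyond the dashed lines.

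The other 3 sterol synthesis genes were not listed under their own symbols in either table. Rows of neighbouring genes reached into the loci of Fdft1 and Tm7sf2 in both tables and into that of Acat2 in WT. Acat2, the cytosolic thiolase of the first step, has its end within the row of Tcp1 in WT (13109128 to 13136898 on chromosome 17), while the row of Tcp1 in β-arr1 KO ends at 13117933. Fdft1, squalene synthase, shares its end with the row of Ctsb, a lysosomal protease gene at 1356 FPKM in WT vs. 968 FPKM in β-arr1 KO. Tm7sf2, a sterol reductase gene, lies wholly inside the row of Vps51, which was 19.3 FPKM and 28.9 FPKM, just inside the upper limit. Values of Fdft1 and Tm7sf2 cannot be separated from these rows, and no row overlapped Acat2 in β-arr1 KO.

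Most sterol synthesis genes shared a feature of their promoters that the choice of genes did not use. Promoter windows of 250 bases before to 50 bases after the start, from RefSeq on GRCm38.p6, were given for 29 of the 37 genes and searched on both strands. The sterol synthesis genes Fdps, Fdft1 and Sqle had no window. The letters CCAAT, the core bound by NF-Y, a cofactor of SREBPs, were in at least 1 window of 14 of the 15 sterol synthesis genes with a window, Acat2 being the exception. They were in 41.1% of 27025 RefSeq genes with a window and in 43.2% of 9201 such genes among those analysed. They were in 4 of 5 sterol regulator genes, 3 of 6 fatty acid synthesis genes and 1 of 3 export and storage genes. The letters TCACNCCAC, the core of the sterol regulatory element, were found for 1 gene of the set, Hmgcs1, beside 1.44% of all genes with a window. The E-box letters CACGTG were found for 7 of the 29 genes (24.1%), beside 8.09% of all genes with a window and 11.7% of those among the genes analysed. A match describes the letters of these windows and is not a measurement of binding.

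The stretches next to the start are printed for 5 sterol synthesis genes with ratios from 1.20 to 1.27. They show how close to the start the CCAAT letters lie, in some genes read as ATTGG from the other strand. The letters were also in windows of genes with ratios near 1, such as Sc5d (0.995) and Lss (1.03). The printed stretches run 5′ to 3′ on the strand of the gene, with the matches in capitals. For Hmgcs1 the first capitals are the sterol regulatory element core, 137 bases before the start. The stretch of Hmgcs1 is chr13:119690204-119690350 on the plus strand of GRCm38.p6, that of Idi1 is chr13:8885546-8885605 (plus), that of Sc4mol is chr8:64733583-64733679 (minus), that of Nsdhl is chrX:72918455-72918520 (plus) and that of Dhcr7 is chr7:143830119-143830213 (plus).
Hmgcs1: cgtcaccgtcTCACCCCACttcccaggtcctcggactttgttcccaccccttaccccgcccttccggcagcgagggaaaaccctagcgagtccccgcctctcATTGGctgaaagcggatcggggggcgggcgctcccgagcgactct
Idi1: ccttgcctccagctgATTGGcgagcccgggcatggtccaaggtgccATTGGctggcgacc
Sc4mol: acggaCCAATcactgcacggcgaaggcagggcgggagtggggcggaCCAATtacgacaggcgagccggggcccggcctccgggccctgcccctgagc
Nsdhl: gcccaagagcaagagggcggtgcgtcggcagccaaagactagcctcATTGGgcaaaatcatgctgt
Dhcr7: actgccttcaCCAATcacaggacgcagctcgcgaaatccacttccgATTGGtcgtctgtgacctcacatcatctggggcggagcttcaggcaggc

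Over the whole set, 2 of 34 listed genes were past the limits, both above 3/2 and 0 below 2/3, beside 17.8%, 9.56% and 8.28% of all genes analysed. These shares include genes listed in 1 table only, which always count as past the limits. All 34 genes of the set were listed in both tables, so the shares are not fully alike. None of the 5 sterol regulators was past the limits, and their median ratio was 1.07. Srebf1, which encodes SREBP-1, was 27.6 FPKM in WT vs. 27.4 FPKM in β-arr1 KO (ratio 0.995). Srebf2, which encodes SREBP-2, the factor tied most closely to sterol synthesis, was 28.2 FPKM and 30.2 FPKM (ratio 1.07, 0.993 to 1.16). Scap, the escort protein, was 24.6 FPKM and 27.0 FPKM (ratio 1.10, 1.01 to 1.20). Both SREBP genes thus differed by less than counting error could give.

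The INSIG genes differed from each other. Insig1, itself a target of SREBPs, was 14.6 FPKM in WT vs. 18.2 FPKM in β-arr1 KO, with a ratio of 1.24 (1.08 to 1.43). Insig2 was 21.5 FPKM and 21.4 FPKM, a ratio of 0.996 (0.881 to 1.13). The ratio of Insig1 was near those of Hmgcs1, Idi1 and Sc4mol. These values are transcript levels and say nothing of the cleavage that activates SREBPs.

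**Figure D3:**
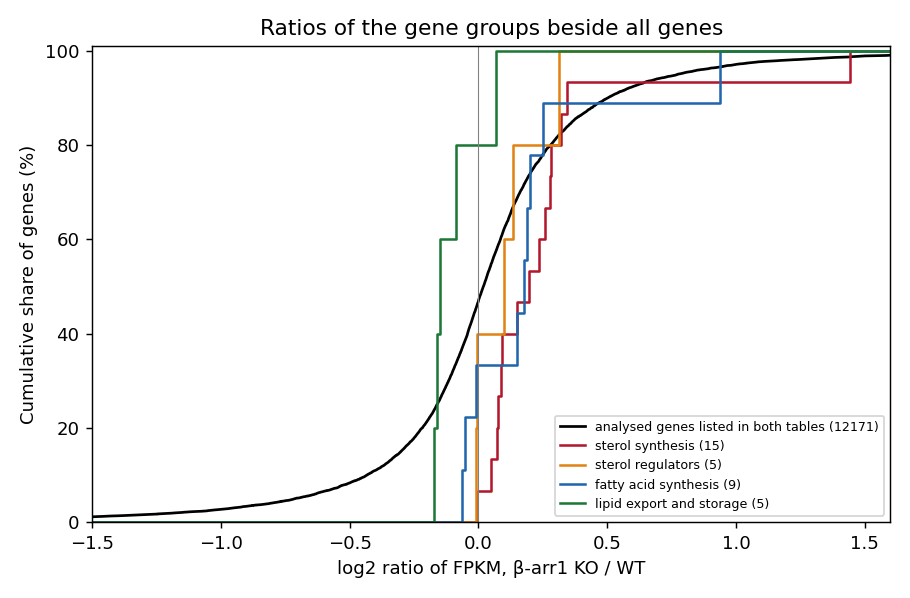
Cumulative share of genes (%) by log2 ratio of FPKM in β-arr1 KO to WT, for the 12171 analysed genes that were listed in both tables (black) and the 4 gene groups (colours). The curves of sterol and fatty acid synthesis cross the 50% level right of the black curve, at 0.20 and 0.18, and that of lipid export and storage crosses it left, at -0.15.

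Fatty acid synthesis genes were listed for all 9 members, and 1 of them, Acaca, was past the limits. Of all genes analysed, 17.8% were past the limits and 9.56% above 3/2. The median ratio was 1.13, and 6 of 9 genes had a ratio above 1, beside 53.0% of all genes analysed. Without Acaca, the other 8 genes lay between 0.956 and 1.19, with a median of 1.12. Over the 5 genes whose rows had the same bounds in both tables (Acly, Scd1, Scd2, Elovl6 and Elovl5), the median log2 ratio was -0.0079 and none was past the limits, so the direction of this group depended on genes with unequal bounds.

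Acly, which turns citrate into acetyl-CoA for both pathways, was 45.1 FPKM in WT vs. 44.9 FPKM in β-arr1 KO (ratio 0.995, 0.932 to 1.06). Acaca, acetyl-CoA carboxylase, which commits acetyl-CoA to fatty acids, was 3.16 FPKM and 6.06 FPKM, a ratio of 1.92 (1.66 to 2.22). Its row runs from 83993317 to 84215153 on chromosome 11 in WT and begins at 83993352 in β-arr1 KO, and the annotated gene has 56 exons in its longest transcript. Fasn, fatty acid synthase, which takes the product of Acaca, was 31.7 FPKM and 36.1 FPKM, a ratio of 1.14 (1.08 to 1.20). Acaca was thus at a much lower level than Acly and Fasn in both libraries, and past the limits where its neighbours in the pathway were not.

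Like Fdps, Acaca has a near copy. Of its coding windows, 75.2% were found again in 1 stretch of chromosome 12 of NCBIM37, chr12:10158950-10165038, where the annotation has no gene. Of the 33 listed genes with annotated coding sequence, 3 had at least 50% of their windows elsewhere (Fdps, Idi1 and Acaca), and both genes past the limits were among them. Over all genes, 24.9% of the 704 with at least 50% of windows elsewhere were past the limits, beside 16.8% of the 9503 with no window elsewhere. For genes outside the set only every 25th window was searched, while all windows of the members were. Idi1, with 86.1%, was not past the limits. Whether reads of the copies entered these values was not tested.

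**Figure D4:**
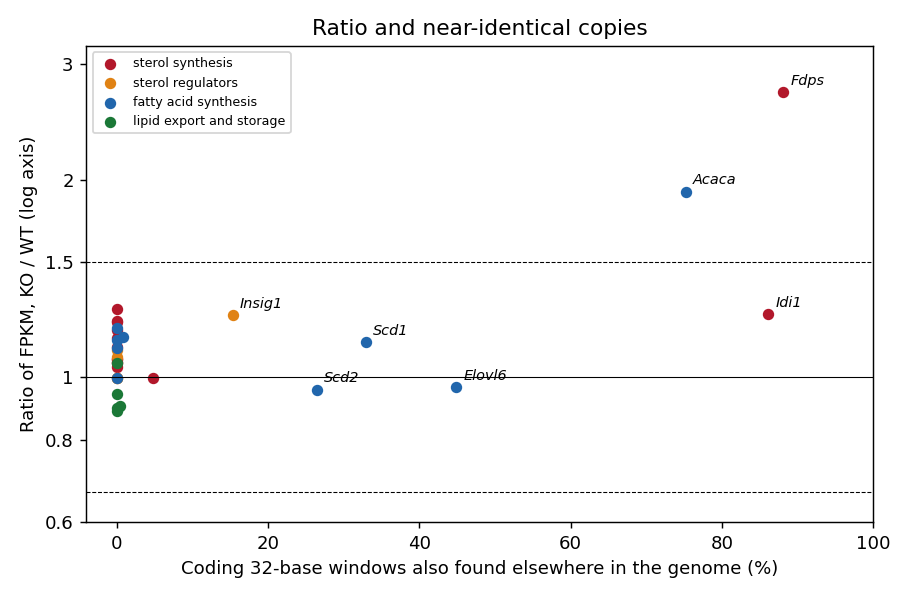
Ratio of FPKM in β-arr1 KO to WT (log axis) against the share of 32-base coding windows found elsewhere in the genome (%), for listed genes with annotated coding sequence, with the limits dashed. Fdps and Acaca lie at the upper right, at 88.1% and 75.2%, and Idi1 at 86.1% lies below the upper limit.

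The stearoyl-CoA desaturases, which make monounsaturated fatty acids, differed little and in opposite directions. Scd1 was 37.7 FPKM in WT vs. 42.5 FPKM in β-arr1 KO, with a ratio of 1.13 (1.06 to 1.21). Scd2, the main brain form, was 132 FPKM and 127 FPKM, a ratio of 0.956 (0.924 to 0.990). The row of Scd2 covers 143456 bases of chromosome 19 and spans Scd3 and Scd4, which are not listed, and Scd1 and Scd2 share 33.0% and 26.5% of their windows with other places, mainly with members of this family. Reads may therefore have been exchanged between these genes.

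The elongases were close to 1. Elovl6, which extends palmitate, was 3.88 FPKM in WT vs. 3.74 FPKM in β-arr1 KO (ratio 0.964, 0.793 to 1.17). Elovl5, which extends polyunsaturated fatty acids, was 30.4 FPKM and 33.7 FPKM (ratio 1.11, 1.00 to 1.22). The polyunsaturated fatty acid desaturases were among the most abundant genes of the set. Fads1 was 86.8 FPKM and 103 FPKM, a ratio of 1.19 (1.13 to 1.25). Fads2 was 117 FPKM and 135 FPKM, a ratio of 1.15 (1.07 to 1.23). The row of Fads1 is 155331 bases long in WT, holds the whole row of Fads2 and spans Fads3, so these 2 values are not independent.

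Of the 5 lipid export and storage genes, 4 had a ratio below 1 and 1 had a ratio above 1, beside 53.0% above 1 over all genes analysed. Their median ratio was 0.901, and none was past the limits, beside 17.8% of all genes analysed. Apoe, the lipid carrier that astrocytes and microglia secrete, was the highest gene of the set, at 834 FPKM in WT vs. 746 FPKM in β-arr1 KO. The ratio of 0.895 (0.869 to 0.921) was the only one of the group whose interval left out 1. Microglia markers had a median ratio of 0.793 and astrocyte markers one of 1.37, and the part of either cell type in the value of Apoe was not tested.

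The transporter genes were close to 1. Abca1, which loads cholesterol onto apolipoproteins, was 28.5 FPKM in WT vs. 29.9 FPKM in β-arr1 KO (ratio 1.05, 0.996 to 1.11). Abcg1 was 1.74 FPKM and 1.57 FPKM, and with 57 and 53 fragments its interval ran from 0.608 to 1.33. Stard4, a carrier of cholesterol between membranes, was 6.27 FPKM and 5.56 FPKM (ratio 0.887, 0.749 to 1.05). Soat1, which esterifies cholesterol for storage, was 20.7 FPKM and 19.5 FPKM (ratio 0.942, 0.858 to 1.03). A difference of this size in Abca1, Abcg1, Stard4 or Soat1 was not detectable at this depth.

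Other genes of the same pathways were described from lists of their own. Of 20 further genes around sterol synthesis, 16 were analysed, none was past the limits and 7 had a ratio above 1, with a median of 0.978. Over all genes analysed, 17.8% were past the limits and 53.0% had a ratio above 1. Ggps1, which extends farnesyl diphosphate, had a ratio of 1.16, and Erlin1, a regulator of INSIG turnover, one of 1.14. The lowest ratios were those of Mbtps2 (0.823) and Mbtps1 (0.895), the proteases that cleave SREBPs, and Fntb (0.909), a subunit of the farnesyltransferase.

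Of 31 further genes of fatty acid metabolism, 24 were analysed, with a median ratio of 1.05, and 16 of them had a ratio above 1, beside 53.0% of all genes analysed. Only Fads6 was past the limits, at 1.57 FPKM in WT vs. 2.42 FPKM in β-arr1 KO (ratio 1.54), and none was below 2/3. Over all genes analysed, 9.56% were above 3/2 and 8.28% below 2/3. The highest ratios at 5 FPKM or more were those of the acyl-CoA synthetase gene Acsl6 (1.43), the acetyl-CoA synthetase gene Acss2 (1.31) and of Hsd17b12 (1.26), an enzyme of chain elongation. The lowest were those of Mid1ip1 (0.809), which activates acetyl-CoA carboxylase, Dgat1 (0.851), which makes triglyceride, and Hacd1 (0.933).

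Among lipid uptake and transport genes outside the set, 6 genes were counted below 2/3 and 1 was above 3/2. The 6 include Pltp, which has no ratio because it was not listed in β-arr1 KO. These counts are over 31 genes analysed of 36, with a median ratio of 0.931, and stand beside 8.28% and 9.56% of all genes. Lcat, which esterifies lipoprotein cholesterol, was 13.1 FPKM in WT vs. 20.7 FPKM in β-arr1 KO (ratio 1.58). Lrp8, an apolipoprotein E receptor, and Clu, an apolipoprotein, had ratios of 1.48 and 1.18. The fatty acid transporter gene Cd36 was 13.2 FPKM and 5.23 FPKM (ratio 0.397), and the fatty acid binding protein gene Fabp5 was 64.3 FPKM and 31.4 FPKM (ratio 0.488). Npc2, which moves cholesterol out of lysosomes, was 295 FPKM and 151 FPKM (ratio 0.512).

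The other 3 genes counted below the limit were Cyp27a1 (ratio 0.432), Apod (0.609) and Pltp. Pltp, a phospholipid transfer protein gene, was 42.5 FPKM in WT and not listed in β-arr1 KO, where its locus was overlapped by the rows of Neurl2 and Ctsa. A fold change of Pltp was not computed, and its count as below 2/3 rests on the missing row alone. Cd36, Npc2 and Fabp5 are also expressed by macrophages, and the sum of the microglia markers was 1411 FPKM in WT vs. 1084 FPKM in β-arr1 KO. The part of these cells in the values was not tested.

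**Figure D5:**
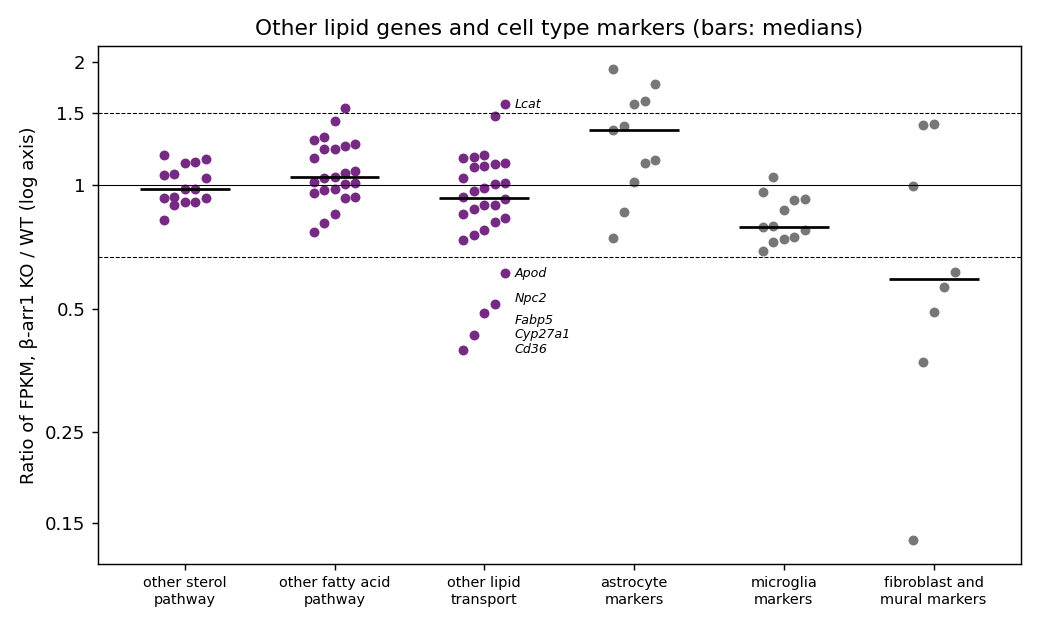
Ratio of FPKM in β-arr1 KO to WT (log axis) for further lipid genes (purple) and cell type markers (grey) that reached 1 FPKM in one library and were listed in both, with medians as bars and the limits dashed. Lipid transport genes reach down to 0.397 for Cd36, the microglia markers lie mostly below 1, and most astrocyte markers lie above 1.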

How the data were processed

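The 2 libraries were compared by genotype, as the labels give it. According to the study, reads were aligned to mm9 with TopHat (version 1.4.0 in the submitters' processing notes) and assembled with Cufflinks, whose version and settings are not given in the sources used here. The authors deposited 1 table of FPKM values per library, which lists values above 0 only. Tables were joined by symbol with the highest row kept, and no pseudocount was added. Members and gene lists were chosen with earlier results of these data known. All members were described, and from other lists the 3 genes of highest ratio and the 3 of lowest (only genes reaching 5 FPKM in a library), with every gene past the limits. Some genes that this rule names are not reported here.

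Fragments were estimated from the steps of values below 0.15 FPKM, of which 70.1% in WT and 71.0% in KO lay within 5% of a step. Intervals are exact (Clopper-Pearson, 95%). Windows of 32 bases were searched in NCBIM37 with the GENCODE annotation, and 1 was added to each start so that positions count from 1. Scripts were tested on simulated data. Python 3.11.15, numpy 2.4.6, pandas 2.3.3 and scipy 1.17.1 were used.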

Additional observations from a re-analysis of the deposited data

How the results depend on the processing

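The alternatives were pseudocounts of 0.1 and 1 FPKM, rescaling by the total, the median ratio or the upper quartile, other minimums, limits of 2 and 1/2, rows with the same symbol or overlapping loci summed, and genes with equal bounds only. In all 363 values of a member's ratio under these alternatives, the difference from the reported ratio was within counting error. For Hmgcs1 the median width over the other genes was used. Most of this was fixed in advance, because a minimum or the choice of equal bounds only keeps or drops a gene. Summing rows leaves members without such rows unchanged, so only pseudocounts and rescaling could alter every ratio. Fdps (2.59 to 2.73) and Acaca (1.70 to 1.92) stayed above 3/2. Rescaling moved the log2 ratios by at most 0.02, and 14 of 15 sterol synthesis genes kept a ratio above 1 under each scaling, while the share over all genes ran from 50.04% to 53.68%. The count of all genes past the limits, 2256, was 4830 with no minimum, 1179 at 5 FPKM in at least one library, 1372 at 1 FPKM in both, 1163 with limits of 2 and 1/2 and 1014 of 7333 with equal bounds. Fatty acid synthesis genes past the limits numbered 0 with limits of 2 and 1/2 and 0 with equal bounds, where the median log2 ratio was -0.0079. Alternatives chosen after seeing the data left 0 sterol synthesis genes past the limits without Fdps, and likewise 0 without the 2 genes with most windows elsewhere (median log2 ratio 0.15, beside 0.20), and 0 fatty acid synthesis genes without Acaca. With the GO terms that the tables carry in place of the lists, the median log2 ratio was 0.14 for cholesterol biosynthetic process and 0.014 for fatty acid biosynthetic process, so the latter group's median depended on which genes were counted. No paired analysis was possible because each genotype has 1 library. Depth limits the genes with few fragments, such as Abcg1 with 57 in WT.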
